A study of Mus musculus with 29 samples.

Results

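The genotype difference of the dexamethasone response is the response of Klf15-/- lung to the drug minus the response of wild-type lung, averaged over 4 and 8 h after dosing. All 29 arrays of the series enter it. It was estimated for 15351 genes, and 4537 of them (29.6%) passed limma's test at an adjusted p under 0.05. The genes described here are those whose different probes agreed in sign. The responses and the class of a gene were read from its brightest probe alone, and another probe could show another class. A gene qualified when at least 2 of its probes were measured, meaning 2 or more arrays well above background in every group, when all of these probes gave the same sign, and when at least 1 probe besides the brightest passed the test too. Of 5116 genes with enough probes, 100 (1.95%) had a larger response in wild type and are called Klf15-dependent, 225 (4.4%) had a larger response in the knockout and are called Klf15-opposed, and 56 (1.09%) responded by at least 1 on the log2 scale in both genotypes with a narrow interval around no difference and are called independent. These names describe the sizes of the responses and no mechanism.

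Total RNA of mouse lung was hybridised in 1 colour to whole-genome oligonucleotide arrays. The mice were C57BL/6 of 6 to 8 weeks of age, wild type or Klf15-/-, and received dexamethasone at 2.5 mg/kg or saline. Wild-type groups held 4 arrays for saline at 4 h, 3 for saline at 8 h, 4 for dexamethasone at 4 h and 3 for dexamethasone at 8 h, and the knockout groups held 3, 4, 4 and 4 in the same order. The labels speak of biologic replicates, and the spread behind each p-value is that between arrays of a group. The 29 arrays lay on 8 slides, which the main fit did not model (consensus correlation of slide 0.41), so that spread includes differences between slides. No source used here says how the Klf15 allele was made. Of 12 alveolar type 2 cell markers, 11 were tested and all 11 were measured in every group. The series title names the question, which is how the glucocorticoid receptor and Klf15 act together in a feed-forward circuit.

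The glucocorticoid receptor is a hormone-activated transcription factor that binds DNA after dexamethasone enters the cell. It directly induces Klf15, a Krüppel-like zinc finger factor known for raising enzymes of amino acid breakdown in liver and muscle and for restraining lipid synthesis. In a feed-forward circuit a regulator controls a target both directly and through a second factor, so that a target can need both factors, need only the first, or be raised by the first and restrained by the second. The comparison of responses with and without Klf15 sorts genes along these lines.

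Levels are given as scaled log2 signal, the log2 of the processed spot signal minus that array's 75th percentile, and changes are differences of such levels. Dexamethasone changed 43.4% of genes in wild type and 55.2% in the knockout. The responses, the genotype differences under each treatment and the genotype difference of the response all come from the same arrays, so none is independent support for another. Klf15 itself was read first as a check of the labels, and every knockout array lay below every wild-type array of the same treatment and time. On wild-type arrays Klf15 read 2.12, 2.05, 2.64 and 2.55 under saline and 4.26, 4.18, 4.28 and 4.37 under dexamethasone at 4 h, and 3.07, 2.77 and 3.11 against 3.98, 3.49 and 3.84 at 8 h. On knockout arrays Klf15 read -0.78, -0.82 and -0.20 under saline and 1.15, 1.35, 1.45 and 1.35 under dexamethasone at 4 h, and -0.55, -0.43, 0.15 and 0.57 against 0.54, 1.27, 0.94 and 0.71 at 8 h. Klf15 rose in both genotypes, by 1.36 and 1.43, and the genotype difference of its response was 0.07 (SE 0.22, limma adjusted p = 0.868). Its genotype difference was -2.99 under saline and -2.93 under dexamethasone. These values are those of the brightest Klf15 probe. The other probe gave responses of 1.22 in wild type and 0.88 in the knockout, a difference of -0.35 that was not called. The position of the Klf15 probes relative to the deletion is unknown here, and a probe outside the deletion would check nothing.

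Across all genes the difference leaned one way. Of the 4537 calls, 3501 (22.8% of genes tested) were higher in the knockout's response and 1036 (6.75%) lower, and the median over all genes was 0.14. Under saline 5360 genes (34.9%) differed between genotypes, 1484 higher (9.67%) and 3876 lower (25.2%) in the knockout, whereas under dexamethasone 987 genes (6.43%) differed, 4.25% of all genes higher and 2.18% lower. With genes cut into 5 groups by signal, the median was 0.28 in the brightest, 0.14, 0.04 and 0.01 in the next 3 and 0.15 in the dimmest. It also went with the knockout saline arrays, on which the mean log2 ratio of a gene's bright to its dim probe was -0.37 to -0.12, against -0.09 to 0.29 on the 22 other arrays (difference -0.28, exact permutation test, two-sided p = 6.41e-07, as small as 7 against 22 arrays can give). The part of this shift in the results for single genes was not tested. Genes named by rule for a called difference are therefore also given with their genotype difference under saline and under dexamethasone, the second of which uses no saline array. The split between higher and lower calls also changed with the scaling, from 77.2% higher to 64.7% after quantile normalization and 56.8% after cyclic loess normalization.

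The agreement of probes removed most calls. Of 1892 called genes with at least 2 measured probes, 1014 (53.6%) had all probes on the same side, 48.5% of those called higher and 72.1% of those called lower, and 331 had another probe that passed. The 9344 genes with 1 measured probe could not be checked this way and are named only where a list calls for it. By the mean over times that chose them, all 100 Klf15-dependent and all 225 Klf15-opposed genes had the same sign at 4 and at 8 h. At 4 h 2605 genes (17%) were called and at 8 h 1001 (6.52%), while the difference between the times was called by limma for 0 genes (0%, with 817 genes at an unadjusted p under 0.05).

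**Figure D1:**
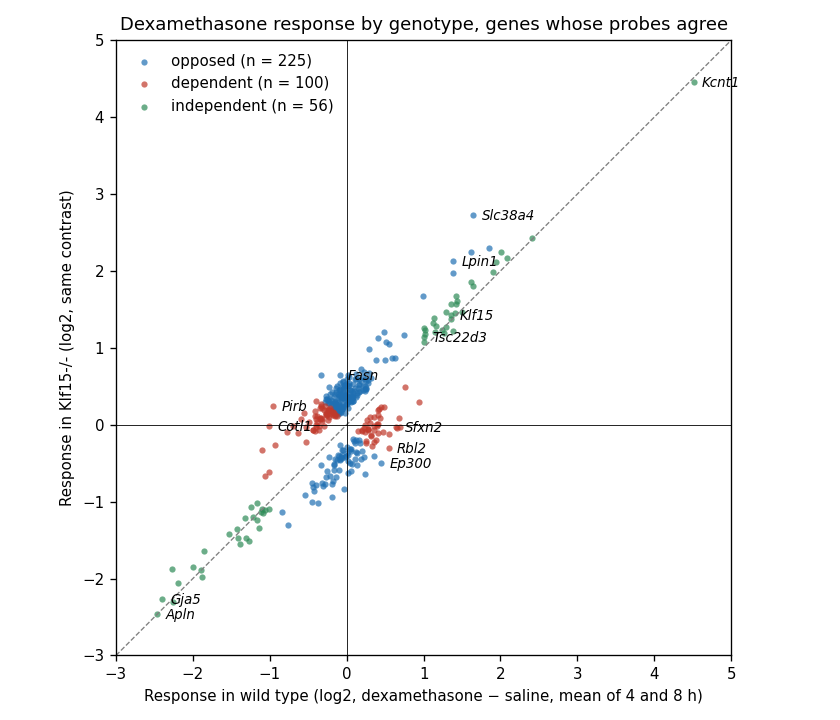
Dexamethasone response in wild type (horizontal axis) against that in Klf15-/- (vertical axis), both in log2 units and averaged over 4 and 8 h, for the 100 Klf15-dependent, 225 Klf15-opposed and 56 independent genes whose probes agree; each point is 1 gene and the dashed line marks equal responses. Independent genes lie along the line by the rule that chose them, and of the Klf15-dependent genes 65 had no called response in the knockout and 25 one of the opposite sign. Of the Klf15-opposed genes 152 had no called response in wild type.

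The Klf15-dependent class held 41 genes that dexamethasone raised in wild type and 59 that it lowered. The raised genes had a median response of 0.36 in wild type and -0.04 in the knockout, and 30 of the 41 had no called response in the knockout. The lowered genes had medians of -0.34 and 0.12, and 35 of the 59 had no called response in the knockout, while 20 had a called response of the opposite sign. Differences were under 2-fold for all genes of the class but Pirb, and for Pirb too when 1 wild-type array was left out.

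Sfxn2, a mitochondrial carrier of the sideroflexin family, rose with dexamethasone in wild type and by its brightest probe had no called response in the knockout. On wild-type arrays Sfxn2 read -0.44, -0.29, -0.75 and -0.53 under saline and 0.02, 0.25, 0.11 and 0.05 under dexamethasone at 4 h, and -0.58, -0.52 and -0.57 against 0.26, 0.08 and 0.03 at 8 h. On knockout arrays Sfxn2 read -1.34, -1.70 and -1.56 under saline and -1.46, -1.43, -1.58 and -1.66 under dexamethasone at 4 h, and -1.45, -1.58, -1.73 and -1.47 against -1.38, -1.79, -1.69 and -1.65 at 8 h. In wild type every dexamethasone array lay above every saline array at both times, while the knockout arrays of both treatments overlapped and lay below all wild-type arrays. The response was 0.64 in wild type and -0.03 in the knockout, a difference of -0.68 (SE 0.11, limma adjusted p = 0.000235), and the other probe gave -0.85. By that other probe the responses were 0.45 in wild type and -0.40 in the knockout, both called. The knockout was lower by 1.02 under saline and by 1.69 under dexamethasone.

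Rbl2, the pocket protein p130 that restrains cell cycle genes, rose with dexamethasone in wild type and fell in the knockout. On wild-type arrays Rbl2 read -0.09, -0.19, -0.04 and -0.37 under saline and 0.14, 0.31, 0.39 and 0.52 under dexamethasone at 4 h, and -0.16, 0.07 and -0.23 against 0.58, 0.46 and 0.39 at 8 h. On knockout arrays Rbl2 read 0.16, 0.28 and 0.10 under saline and -0.31, -0.29, -0.21 and -0.10 under dexamethasone at 4 h, and 0.29, 0.16, 0.18 and 0.22 against 0.34, -0.13, -0.13 and -0.05 at 8 h. The wild-type groups did not overlap at either time, and the knockout groups did not overlap at 4 h but did at 8 h, where 1 dexamethasone array at 0.34 stood above the other 3. The responses were 0.55 and -0.31, and their difference was -0.85 (SE 0.11, limma adjusted p = 4.2e-05), with -1.04 by the other probe. Under saline the knockout was higher by 0.34 and under dexamethasone it was lower (-0.52).

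For the other raised genes of this class named by size, the difference was -0.72 for Chd4, the ATPase of the NuRD chromatin remodelling complex, -0.61 for Gigyf2, a repressor of translation, and -0.59 for Peg3, an imprinted zinc finger gene. It was -0.67 for Igf2, an imprinted growth factor, -0.65 for Acat3, a cytosolic acetyl-CoA acetyltransferase, and -0.69 for Fam177a. Genotype differences under saline and under dexamethasone, in that order, were 0.39 and -0.32 for Chd4, 0.37 and -0.24 for Gigyf2, 0.27 and -0.32 for Peg3, 0.24 and -0.42 for Igf2 and 0.18 and -0.52 for Fam177a. By its brightest probe Chd4 responded by 0.69 in wild type and -0.03 in the knockout. Its other called probe gave responses of -0.24 and -0.80, larger in the knockout, and the remaining probe 0.001 and -0.19. With slide as a fixed block the calls ended for Fam177a, Igf2 and Chd4, with each gene's dimmest probe that for Gigyf2 ended, and that for Fam177a also ended when any of 17 single arrays was left out. For Acat3 the response was 0.94 in wild type and 0.29 in the knockout, and the genotypes differed by 0.70 under saline and by 0.05 under dexamethasone. Under dexamethasone 7 of the 41 raised genes (17.1%) had a called genotype difference, against 6.51% of all genes with at least 2 measured probes. Besides Sfxn2 and Rbl2 these were Slc22a5, the carnitine importer (-0.29), Gmeb2, a DNA-binding partner of the glucocorticoid receptor (-0.27), the receptor kinase Ryk (-0.22), the clock regulator Rora (-0.21) and the corepressor Ctbp2 (-0.17), named after their values were seen. Since the difference under dexamethasone is a part of the difference that chose these genes, the share is a description. Under saline 21 of the 41 differed between genotypes (51.2%, against 43.9%).

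**Figure D2:**
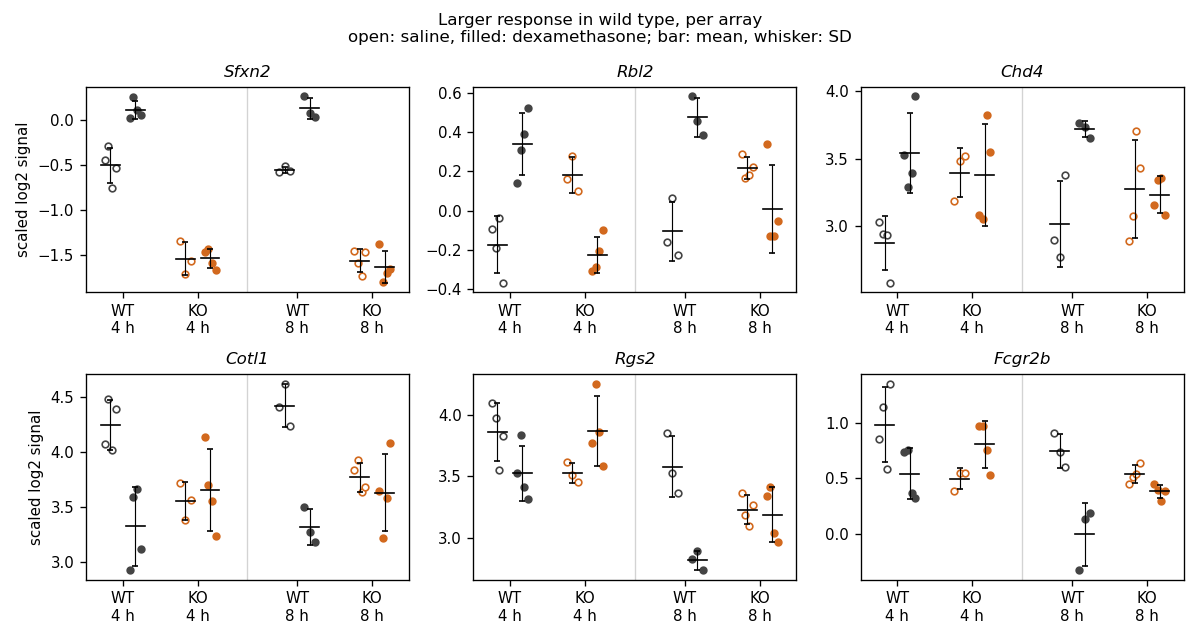
Scaled log2 signal of 6 Klf15-dependent genes on every array, by genotype (WT, wild type; KO, Klf15-/-) and time, with open points for saline, filled points for dexamethasone, bars for group means and whiskers for the SD of 3 or 4 arrays. Sfxn2, Rbl2 and Chd4 were raised in wild type and Cotl1, Rgs2 and Fcgr2b lowered, with smaller or opposite shifts in the knockout. Values are those of each gene's brightest probe.

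Of genes lowered in wild type, Pirb, an inhibitory receptor of myeloid and B cells, had responses of -0.96 and 0.24 and a difference of 1.21 (SE 0.40, limma adjusted p = 0.0273), whose call ended in 7 of 15 alternatives, quantile normalization and the slide block among them. Its wild-type dexamethasone arrays at 8 h read -0.36, 2.35 and 2.25, and without the first of these the difference was 0.76 and still called. Its genotype difference was -0.51 under saline and 0.69 under dexamethasone, called for neither. Fcgr2b, the inhibitory IgG receptor, had a difference of 0.67, the interferon-induced gene Ifi27l2a 0.77, and Rgs2, which shortens signalling of G protein-coupled receptors, 0.70. The dimmer Rgs2 probe gave responses of -0.17 in wild type, not called, and 0.44 in the knockout, called. Cotl1, an actin-binding protein abundant in leukocytes, fell in wild type at both times. On wild-type arrays Cotl1 read 4.08, 4.48, 4.02 and 4.39 under saline and 2.93, 3.60, 3.66 and 3.13 under dexamethasone at 4 h, and 4.41, 4.62 and 4.23 against 3.51, 3.28 and 3.19 at 8 h. On knockout arrays Cotl1 read 3.72, 3.38 and 3.57 under saline and 4.14, 3.70, 3.56 and 3.24 under dexamethasone at 4 h, and 3.83, 3.92, 3.64 and 3.68 against 3.64, 3.22, 3.59 and 4.08 at 8 h. Its wild-type groups did not overlap at either time and its knockout groups overlapped at both, and the responses of -1.005 and -0.02 differed by 0.99 (SE 0.20, limma adjusted p = 0.00118), with 0.83 by the other probe. Under saline the knockout was lower (-0.67), while under dexamethasone the difference was 0.32 and was not called. The remaining genes named by size were Rps19bp1 (0.71), the phosphatase inhibitor Ppp1r14c (0.68) and the chromatin remodelling ATPase Smarca1 (0.67). Under saline and then dexamethasone the genotypes differed by -0.35 and 0.32 for Fcgr2b, -0.32 and 0.45 for Ifi27l2a, -0.34 and 0.36 for Rgs2, -0.46 and 0.24 for Rps19bp1, -0.45 and 0.23 for Ppp1r14c and -0.30 and 0.37 for Smarca1. The call for Fcgr2b ended with the dimmest probe. In the marker lists of leukocytes the difference was called for 1 of 16 neutrophil genes (6.25%) and 1 of 17 monocyte, macrophage and dendritic cell genes (5.88%), against 29.6% of all genes. The median difference was 0.87 in the neutrophil list and 0.02 in the other, against 0.14 over all genes. Of 12 alveolar macrophage genes 3 were called higher and 1 lower (33.3%), with a median of 0.33. Under dexamethasone 14 of the 59 lowered genes (23.7%) were called between genotypes, all higher in the knockout, from Zfp286 at 0.20 to Tspan6 at 0.49 and including Smarca1 (0.37), Rgs2 (0.36) and the cell cycle factor E2f3 (0.37). Under saline 44 of the 59 (74.6%) were called, and the shares of all genes with at least 2 measured probes were 6.51% and 43.9%. The genes were chosen by a difference made of both of these, so the shares and the shared direction are a description. In bulk tissue fewer cells of a type and less RNA per cell cannot be told apart.

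Amino acid breakdown was followed through 2 lists, because Klf15 is known for it. Of 24 genes of branched-chain amino acid breakdown, 2 were called higher in the knockout's response and 6 lower, and of 40 other amino acid enzymes 6 were called higher and 8 lower. The shares called (33.3% and 35%) lay near the 29.6% of all genes, and the list medians were 0.02 and -0.01 against 0.14. After cyclic loess normalization the shares were 33.3% and 35% against 18.7% of all genes, and in the deposited table they were 29.2% and 27.5% against 14.7%. The branched-chain median turned to -0.15 and -0.15 in these, and that of the other list was -0.03 and -0.03, with medians over all genes of 0.05 and 0.06. Other settings differed. With array weights the shares were 29.2% and 35% against 36.1% of all genes. They were 16.7% and 35% against 23.1% with the dimmest probe, and 33.3% and 22.5% against 21.3% after median scaling. Of the 14 enzymes called lower, all named here after their values were seen, 10 had 1 measured probe and 4 had 2 whose second did not pass. None therefore belongs to the classes of agreeing genes.

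Cbs, which starts the conversion of homocysteine to cysteine, had the largest genotype difference under dexamethasone of these 14. On wild-type arrays Cbs read -2.75, -3.02, -3.06 and -2.94 under saline and -2.06, -2.12, -1.77 and -1.90 under dexamethasone at 4 h, and -2.79, -2.69 and -2.77 against -1.24, -1.58 and -1.42 at 8 h. On knockout arrays Cbs read -4.61, -4.22 and -4.95 under saline and -5.10, -5.54, -4.94 and -4.73 under dexamethasone at 4 h, and -5.49, -5.68, -5.47 and -4.87 against -4.71, -4.83, -5.04 and -5.27 at 8 h. In wild type the dexamethasone arrays lay above the saline arrays at both times, and in the knockout the treatments overlapped and lay below every wild-type array. The responses were 1.16 and -0.03, and their difference was -1.19 (SE 0.19, limma adjusted p = 0.000235). The knockout was lower by 2.14 under saline and by 3.33 under dexamethasone. Its probe was well above background on all 29 arrays.

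Dbt, a subunit of the branched-chain ketoacid dehydrogenase, responded by 1.12 in wild type and -0.15 in the knockout. On wild-type arrays Dbt read -2.23, -2.65, -2.24 and -2.66 under saline and -1.59, -1.88, -1.38 and -1.02 under dexamethasone at 4 h, and -2.07, -2.96 and -1.91 against -0.90, -1.02 and -1.25 at 8 h. On knockout arrays Dbt read -2.56, -2.29 and -2.12 under saline and -3.01, -2.47, -1.99999 and -2.29 under dexamethasone at 4 h, and -3.14, -2.48, -2.04 and -2.43 against -2.98, -2.40, -2.37 and -3.04 at 8 h. Here the genotypes overlapped under saline at both times (-0.04) and were apart under dexamethasone at both times (-1.31), and the difference of the responses was -1.26 (SE 0.27, limma adjusted p = 0.00181). Fah, the last enzyme of tyrosine breakdown, moved in opposite directions, by 0.35 and -0.41 (difference -0.75 (SE 0.07, limma adjusted p = 9.93e-06)). Prodh, which starts proline breakdown, responded by 0.67 and 0.22 (difference -0.45 (SE 0.14, limma adjusted p = 0.0174)). The same direction held for Gstz1 of tyrosine breakdown (-0.39), Aldh4a1 of proline breakdown (-0.43), and on the branched-chain side for Bckdhb (-0.35), the phosphatase Ppm1k that activates the dehydrogenase (-0.47), Mccc2 (-0.71), Acad8 (-0.50) and Pccb (-0.43). The urea cycle enzymes Ass1 (-0.52) and Asl (-0.25) and the cysteine dioxygenase Cdo1 (-0.19) were also called. Between genotypes the levels under saline and under dexamethasone differed by -0.28 and -1.04 for Fah, -1.003 and -1.45 for Prodh, -0.52 and -0.91 for Gstz1, -0.37 and -0.80 for Aldh4a1, -0.59 and -0.94 for Bckdhb, -0.38 and -0.85 for Ppm1k, 0.21 and -0.50 for Mccc2, 0.17 and -0.26 for Pccb, -0.08 and -0.60 for Ass1, 0.04 and -0.21 for Asl and -0.11 and -0.30 for Cdo1. Aldh4a1 gave 0.12 and Ppm1k 0.06 by the second probe, without a call. The calls ended in 8 of 15 alternatives and without any of 16 single arrays for Ppm1k, in 3 and without any of 15 arrays for Cdo1, in 4 for Asl, in 2 for Prodh, in 2 for Aldh4a1, with the dimmest probe for Bckdhb and Mccc2, with slide as a fixed block for Acad8, and in 0 for Cbs, Dbt, Fah, Gstz1, Ass1 and Pccb.

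Under dexamethasone 13 of these 14 genes were called lower in the knockout, Acad8 being the exception (-0.15), while under saline 7 were called lower and 1, Acad8, higher (0.36). Both differences are parts of the one that chose the 14 genes, so these counts are a description. Over both lists together, 25 of 64 genes were called lower and 3 higher in the knockout under dexamethasone, and 26 lower and 2 higher under saline, where 2.18% and 4.25% of all genes were called in these directions under dexamethasone and 25.2% and 9.67% under saline. Aass, which starts lysine breakdown, was as low in the knockout under saline (-1.10) as under dexamethasone (-1.12) and responded by 0.64 in wild type and 0.61 in the knockout (difference -0.03 (SE 0.10, limma adjusted p = 0.886)). The 14 genes kept a negative sign in each scaling tried, and 11 to 14 of them kept the call under quantile, cyclic loess, median and normexp processing. With each gene's dimmest kept probe 12 of the 14 were negative and 9 were called. Members called higher included Hibch (0.19) of branched-chain breakdown, arginase Arg2 (0.70), Glul (0.59), glutamate dehydrogenase Glud1 (0.54), kynureninase Kynu (0.47), the alanine aminotransferase Gpt2 (0.46) and the methionine adenosyltransferase Mat2a (0.28), and of those named here Glul alone had a second measured probe.

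**Figure D3:**
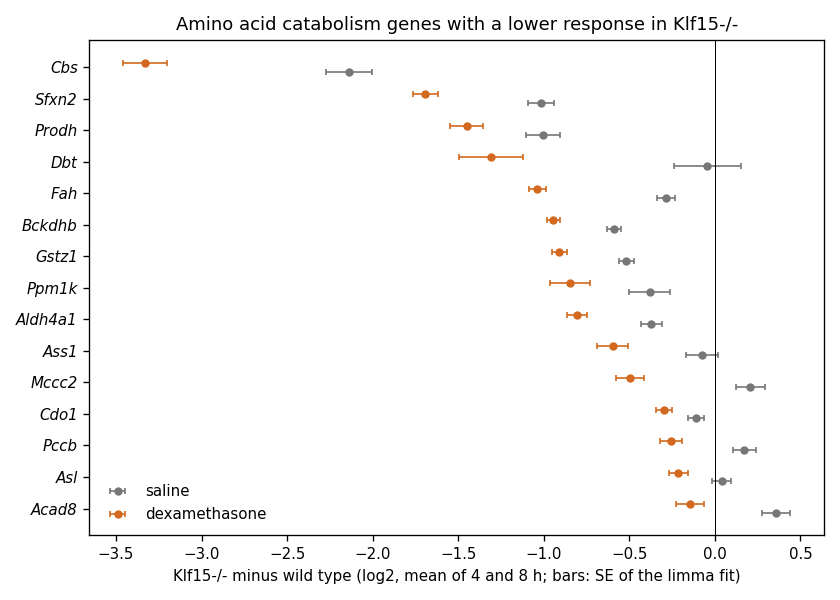
Genotype difference (Klf15-/- minus wild type, log2, mean of 4 and 8 h) under saline (grey) and under dexamethasone (orange) for 14 amino acid enzymes with a lower response in the knockout and for Sfxn2; points are limma estimates and bars their SE. The orange point lies left of the grey one in each gene because the genes were chosen for a lower response; the position of the pair varies, from Cbs at -2.14 and -3.33 to Acad8 at 0.36 and -0.15.

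Sequence upstream of the start site is shown for Sfxn2 and Cbs, whose knockout arrays lay below wild type under both treatments. Both are the 250 bases before a start listed by RefSeq on GRCm38.p6, read along the gene's strand 5′ to 3′, at chr19:46573115-46573364 (plus strand) for Sfxn2 and chr17:31637206-31637455 (minus strand) for Cbs. Each is the only window listed for its gene, and neither matched the outermost start of the gene. Capitals mark CACCC or its complement GGGTG, the letters of the box that Krüppel-like factors bind, and AGAACA or TGTTCT, a half-site of the glucocorticoid receptor.
Sfxn2: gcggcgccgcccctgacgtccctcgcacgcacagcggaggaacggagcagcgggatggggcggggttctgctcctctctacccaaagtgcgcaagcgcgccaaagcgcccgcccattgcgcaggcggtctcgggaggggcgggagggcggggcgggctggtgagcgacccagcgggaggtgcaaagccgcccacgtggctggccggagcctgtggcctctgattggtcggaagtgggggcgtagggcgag
Cbs: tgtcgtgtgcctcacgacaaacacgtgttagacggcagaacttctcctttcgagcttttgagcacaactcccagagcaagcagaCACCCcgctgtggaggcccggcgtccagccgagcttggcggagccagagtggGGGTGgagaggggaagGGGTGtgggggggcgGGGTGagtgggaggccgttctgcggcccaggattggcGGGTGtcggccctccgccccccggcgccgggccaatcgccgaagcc
The Cbs window held 5 CACCC boxes and no half-site, and the Sfxn2 window held neither. Over 32851 windows of this length in the RefSeq table, 52% held a CACCC box and 16.1% a half-site. For the Klf15-dependent genes with agreeing probes, 82 genes matched the table by symbol, and 50.5% of their windows held a box and 12.1% a half-site. A match is a description of letters and not of binding.

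The Klf15-opposed class held 158 genes that dexamethasone raised in the knockout and 67 that it lowered. The raised genes had a median response of 0.41 in the knockout and -0.01 in wild type, and 111 of the 158 had no called response in wild type. The lowered genes had medians of -0.46 and -0.06. The raised genes were bright, with a median scaled signal of 2.59 against -0.28 over all genes tested, the side on which the median difference of all genes was also highest. Of the 158, 133 (84.2%) differed between genotypes under saline and 29 (18.4%) under dexamethasone, against 43.9% and 6.51% of all genes with at least 2 measured probes. Both differences are parts of the one that chose these genes, so the shares are a description.

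Slc38a4, a transporter of neutral amino acids, had the largest difference in this class. On wild-type arrays Slc38a4 read -1.58, -1.94, -1.32 and -1.11 under saline and 0.78, 0.93, 0.77 and 0.93 under dexamethasone at 4 h, and -0.63, -0.65 and -0.51 against 0.27, 0.37 and 0.45 at 8 h. On knockout arrays Slc38a4 read -1.72, -1.70 and -1.55 under saline and 1.56, 1.38, 1.49 and 1.53 under dexamethasone at 4 h, and -1.48, -1.29, -0.97 and -1.22 against 1.04, 1.27, 0.93 and 0.996 at 8 h. Dexamethasone and saline arrays were apart in both genotypes at both times, and under dexamethasone every knockout array lay above every wild-type array. The responses were 1.65 in wild type and 2.72 in the knockout, a difference of 1.08 (SE 0.13, limma adjusted p = 4.2e-05), with 0.74 by the other probe. The knockout was lower under saline (-0.41) and higher under dexamethasone (0.67). Of 24 amino acid transporters 3 were called higher and 1 lower (16.7%, against 29.6% of all genes; median 0.06 against 0.14), the last being Slc3a1 (-0.37), and the others named by their p were Slc7a7 (0.54), which exports basic amino acids, and Slc38a1 (0.51), whose second probe gave -0.13. The genotypes differed under saline and dexamethasone by -0.20 and 0.34 for Slc7a7 and -0.38 and 0.13 for Slc38a1.

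Lpin1, a phosphatidate phosphatase that also acts as a coactivator of fatty acid oxidation genes, rose more in the knockout. On wild-type arrays Lpin1 read 1.20, 1.15, 1.14 and 1.03 under saline and 2.92, 3.26, 3.21 and 2.99 under dexamethasone at 4 h, and 1.21, 1.85 and 1.45 against 2.71, 2.06 and 2.15 at 8 h. On knockout arrays Lpin1 read 0.98, 0.87 and 0.91 under saline and 3.30, 3.50, 3.18 and 3.21 under dexamethasone at 4 h, and 1.62, 1.44, 1.37 and 1.30 against 3.61, 3.06, 3.14 and 3.41 at 8 h. The genotypes overlapped under dexamethasone at 4 h and were apart at 8 h, when the wild-type level had come down. The responses were 1.39 and 2.12, their difference was 0.74 (SE 0.15, limma adjusted p = 0.00123), and the 2 other probes gave 1.03 and 0.56. The difference was 0.41 at 4 h and 1.07 at 8 h. The knockout differed from wild type by -0.14 under saline and 0.60 under dexamethasone.

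Glul, glutamine synthetase, belongs to both the glucocorticoid-induced and the amino acid list. On wild-type arrays Glul read 3.49, 3.51, 3.55 and 3.44 under saline and 5.22, 5.50, 5.53 and 5.39 under dexamethasone at 4 h, and 3.997, 4.12 and 4.33 against 5.17, 4.89 and 4.94 at 8 h. On knockout arrays Glul read 3.33, 3.13 and 3.21 under saline and 5.63, 5.57, 5.49 and 5.50 under dexamethasone at 4 h, and 3.64, 3.74, 3.78 and 3.90 against 5.51, 5.31, 5.27 and 5.49 at 8 h. All dexamethasone arrays lay above all saline arrays of the same genotype and time, with responses of 1.38 and 1.98 and a difference of 0.59 (SE 0.09, limma adjusted p = 0.000195). Its genotype difference was -0.33 under saline and 0.26 under dexamethasone. Slides 1, 2, 3 and 7 each held 1 array of each genotype and treatment, with 4 and 8 h arrays mixed, and within them the difference was 0.98, 0.76, -0.21 and -0.45 for Glul and 1.21, 0.37, -0.43 and -0.37 for Lpin1. Both were negative on slides 3 and 7, where the wild-type arrays were all from 4 h and the knockout arrays all from 8 h. On those slides genotype and time cannot be told apart. On slide 1 the knockout dexamethasone array was from 4 h and the other arrays from 8 h. On slide 2 the knockout saline and wild-type dexamethasone arrays were from 4 h and the other arrays from 8 h. The differences within slides 1 and 2 therefore also mix times. Jaml was positive on slide 1 alone (0.98, -0.20, -0.05 and -0.55). For Slc38a4 (1.79, 1.58, 0.44 and 0.13) and Sfxn2 (-0.80, -1.04, -0.98 and -0.97) the sign was the same on all 4.

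Fasn, fatty acid synthase, responded by 0.65 in the knockout and by -0.09 in wild type, where the response was not called, with a difference of 0.74 (SE 0.09, limma adjusted p = 4.2e-05). On wild-type arrays Fasn read 6.24, 6.13, 5.92 and 6.12 under saline and 6.03, 6.24, 6.31 and 6.14 under dexamethasone at 4 h, and 5.92, 6.10 and 5.93 against 5.77, 5.81 and 5.58 at 8 h. On knockout arrays Fasn read 5.70, 5.67 and 5.86 under saline and 6.57, 6.57, 6.35 and 6.24 under dexamethasone at 4 h, and 5.67, 5.51, 5.55 and 5.37 against 6.21, 6.09, 6.08 and 6.16 at 8 h. In the knockout the treatments did not overlap at either time. In wild type they overlapped at 4 h, and at 8 h the dexamethasone arrays lay below the saline arrays. The difference was 0.39 by the other probe, and the genotypes differed by -0.41 under saline and 0.34 under dexamethasone. Of 35 genes of lipid and glucose metabolism 10 were called higher and 2 lower (34.3%, near the 29.6% of all genes), with Cpt2 of fatty acid oxidation at 0.64 and the desaturase Scd2 at 0.52, each with 1 probe. Cpt2 and Scd2 differed between genotypes under saline and dexamethasone by -0.40 and 0.24 for Cpt2 and -0.36 and 0.16 for Scd2. The call for Scd2 ended after quantile, cyclic loess and normexp processing and in the deposited table. The list median was 0.10 and turned to -0.01 after cyclic loess normalization and in the deposited table, where the counts were 4 higher and 3 lower, and 4 higher and 2 lower.

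**Figure D4:**
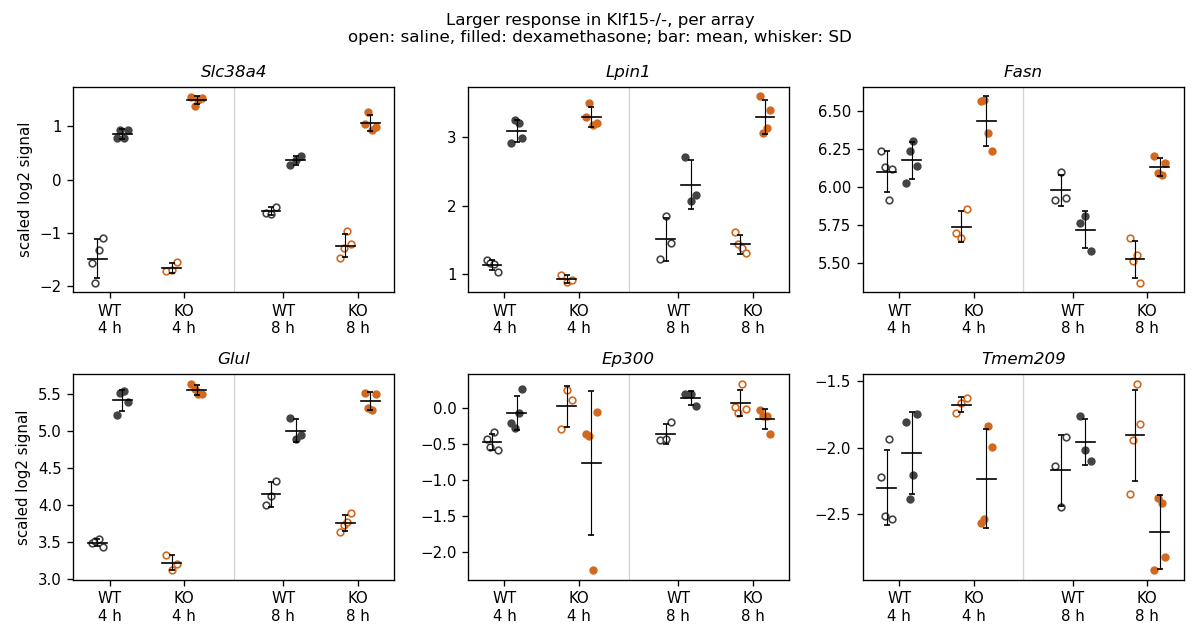
Scaled log2 signal of 6 Klf15-opposed genes on every array, by genotype (WT, wild type; KO, Klf15-/-) and time, with open points for saline, filled points for dexamethasone, bars for group means and whiskers for the SD of 3 or 4 arrays. Slc38a4, Lpin1 and Glul were raised in both genotypes and further in the knockout, Fasn was raised in the knockout, and Ep300 has 1 knockout dexamethasone array at -2.25, far below the rest.

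Of the other raised genes named by size, the difference was 0.98 for Jaml, an adhesion receptor of leukocytes, 0.73 for Rhobtb1, 0.72 for the membrane protein Eva1c, 0.72 for the phosphoinositide kinase Pik3c2g and 0.69 for the translation factor Eif5a2. Their genotype differences under saline and dexamethasone were -0.33 and 0.65 for Jaml, -0.44 and 0.29 for Rhobtb1, -0.46 and 0.26 for Eva1c, -0.41 and 0.32 for Pik3c2g and -0.41 and 0.28 for Eif5a2. The call for Pik3c2g ended in 5 of 15 alternatives and that for Jaml with slide as a fixed block (limma adjusted p = 0.134). Under dexamethasone 29 of the 158 raised genes were called higher in the knockout. Besides those above, the highest, named after their values were seen, were the proton pump subunit Atp6v0a4 (0.79), Wdfy1 (0.52), the calcium-binding protein Cib1 (0.40), the p53-induced gene Trp53inp1 (0.39), and Pmvk of cholesterol synthesis (0.35). Atp6v0a4 and Trp53inp1 responded strongly in both genotypes, by 1.62 and 2.25 and by 1.85 and 2.29. Their genotype difference under saline was small, at 0.16 and -0.05.

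Among the 67 genes lowered in the knockout, the largest difference was that of Ep300, the acetyltransferase p300, at -0.95 (SE 0.30, limma adjusted p = 0.0201). Its knockout dexamethasone arrays at 4 h read -0.36, -0.39, -2.25 and -0.06, and without the array at -2.25 the difference was -0.70. It was -0.88 for the nuclear envelope protein Tmem209, -0.80 for Lancl2, -0.77 for Stxbp4, -0.75 for the adaptor regulator Ap1ar, -0.66 for the zinc finger gene Zfp60, -0.66 for Pogk and -0.65 for Lfng, which modifies Notch. The call for Lancl2 ended with slide as a fixed block. Under saline and dexamethasone the knockout stood apart from wild type by 0.46 and -0.49 for Ep300, 0.45 and -0.44 for Tmem209, 0.36 and -0.45 for Lancl2, 0.50 and -0.26 for Stxbp4, 0.37 and -0.38 for Ap1ar, 0.49 and -0.17 for Zfp60, 0.39 and -0.27 for Pogk and 0.44 and -0.21 for Lfng. Under dexamethasone 13 of the 67 (19.4%, against 6.51%) were called lower in the knockout, most of all Epb41l5, an organiser of epithelial polarity (-0.83). They included Dkc1 of ribosomal RNA modification (-0.48), the motor protein Myh10 (-0.43), the replication fork protein Timeless (-0.40) and Ap1ar (-0.38). Under saline 47 of the 67 (70.1%, against 43.9%) were called. As the difference that chose these genes is made of both, these shares too are a description.

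Upstream sequence is shown for Slc38a4 and Lpin1, whose dexamethasone levels were higher in the knockout, with the same marks, build and length as above. The windows lie at chr15:97055957-97056206 (minus strand), the outermost of the 3 starts listed for Slc38a4, and at chr12:16610967-16611216 (minus strand) for Lpin1. The Lpin1 window is the only one listed and did not match the outermost start of the gene.
Slc38a4: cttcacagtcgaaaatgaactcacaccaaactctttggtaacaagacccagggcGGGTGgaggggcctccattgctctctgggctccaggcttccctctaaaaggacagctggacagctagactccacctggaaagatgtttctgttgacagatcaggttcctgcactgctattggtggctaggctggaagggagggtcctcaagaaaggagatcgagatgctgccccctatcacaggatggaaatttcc
Lpin1: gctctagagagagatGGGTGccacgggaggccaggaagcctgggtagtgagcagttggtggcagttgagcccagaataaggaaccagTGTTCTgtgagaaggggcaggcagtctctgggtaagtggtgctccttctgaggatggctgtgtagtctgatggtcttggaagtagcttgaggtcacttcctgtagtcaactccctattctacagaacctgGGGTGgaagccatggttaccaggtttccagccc
The Slc38a4 window held 1 CACCC box and no half-site, and the Lpin1 window 2 boxes and 1 half-site. Of 241 windows of 186 matched Klf15-opposed genes, 58.5% held a box and 11.6% a half-site. For the independent genes, 42 matched, and of their 58 windows 75.9% held a box and 10.3% a half-site. Windows of 1 gene can overlap, so they are not separate observations.

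The independent class held 30 genes raised and 26 lowered in both genotypes. The raised genes had median responses of 1.36 in wild type and 1.44 in the knockout, and the lowered genes -1.36 and -1.45. Their 95% interval for the genotype difference lay within 0.5 times the mean response on either side of 0 by the rule, so the closeness of both responses is no finding. Under dexamethasone 3 of the 56 (5.36%) were called between genotypes, namely Klf15, Kcnip3 (0.30) and Cd247 (-0.36), near the 6.51% of all genes with at least 2 measured probes, and under saline 7 (12.5%, against 43.9%).

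The glucocorticoid-induced leucine zipper gene Tsc22d3 was in this class. On wild-type arrays Tsc22d3 read 3.23, 3.63, 3.78 and 3.93 under saline and 5.12, 5.12, 5.23 and 5.27 under dexamethasone at 4 h, and 4.37, 4.42 and 4.56 against 5.12, 4.75 and 4.88 at 8 h. On knockout arrays Tsc22d3 read 2.98, 3.66 and 3.78 under saline and 5.12, 5.26 and 5.16 under dexamethasone at 4 h, and 4.41, 4.56, 4.63 and 4.56 against 5.15, 5.20, 5.06 and 5.05 at 8 h. A knockout dexamethasone array at 4 h had no value after outlier spots were left out. Saline and dexamethasone arrays were apart in both genotypes at both times, genotypes overlapped in every treatment and time, and the difference was 0.14 (95% interval -0.17 to 0.45). Its place in the class was near the limits of the rule, being lost after quantile, cyclic loess, median and normexp processing, in the deposited table and with both slide blocks, and without any of 6 single wild-type arrays. The metallothionein Mt2, with 1 probe, responded by 2.14 and 2.21, and its difference was 0.07 (SE 0.21, limma adjusted p = 0.862). That mean joins -0.46 at 4 h and 0.59 at 8 h. Mt2 was higher in the knockout by 0.60 under saline and by 0.67 under dexamethasone. Kcnt1, a sodium-activated potassium channel, had the largest response in the class, 4.51 in wild type and 4.45 in the knockout. It was well above background on 3 of 4 wild-type saline arrays at 4 h and 2 of 3 at 8 h and on all others, and its other probe gave responses of 2.12 and 1.99. Further raised genes named by size were the vesicle linker Myrip (2.40 and 2.43), the transcription factor Tcf23 (2.09 and 2.17), Sema5a (2.003 and 2.24), the splicing factor Rbfox3 (1.95 and 2.12) and the calcium sensor Kcnip3 (1.91 and 1.99).

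Among genes lowered in both genotypes, Apln, the peptide apelin made by endothelium, had the largest mean response. On wild-type arrays Apln read 2.28, 2.10, 2.31 and 2.18 under saline and 0.39, 0.59, 0.11 and -0.53 under dexamethasone at 4 h, and 1.67, 2.27 and 1.64 against -1.70, -0.68 and -0.60 at 8 h. On knockout arrays Apln read 1.45, 1.89 and 1.81 under saline and 0.34, 0.26, 0.22 and 0.17 under dexamethasone at 4 h, and 1.87, 1.82, 1.81 and 1.61 against -1.70, -1.85, -1.62 and -1.58 at 8 h. Its treatments were apart in both genotypes at both times, with responses of -2.47 and -2.47. The genotype difference of the response was 0.61 at 4 h and -0.61 at 8 h, which average to -0.001. Gja5, the arterial gap junction protein connexin 40, fell by 2.40 and 2.27, and the endothelial protocadherin Pcdh12 by 2.26 and 2.30. The lymphocyte genes Cd8a (-2.20 and -2.06), Cd72 of B cells (-2.27 and -1.87) and Cd247 of the T cell receptor (-1.88 and -1.98) completed those named by size. With each gene's dimmest probe Klf15, Kcnt1, Sema5a, Apln, Gja5 and Pcdh12 left the class, and Klf15 also left it with slide as a fixed block. Of the markers measured in every group, 5 of 20 for T cells, 4 of 13 for B cells and 5 of 9 for NK cells were in the independent class with or without a second probe, against 1.66% of all 14460 such genes. The class needs a response of at least 1 in size, and the median wild-type responses of these lists were -1.04, -2.48 and -2.15. The shares are therefore a description. The median genotype differences of the response were 0.16, 0.51 and 0.18, against 0.14 over all genes. A genotype difference was called by limma for 6 of 20 (30%), 3 of 15 (20%) and 0 of 13 (0%, with 1 at an unadjusted p under 0.05) of those tested, against 29.6% of all genes.

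**Figure D5:**
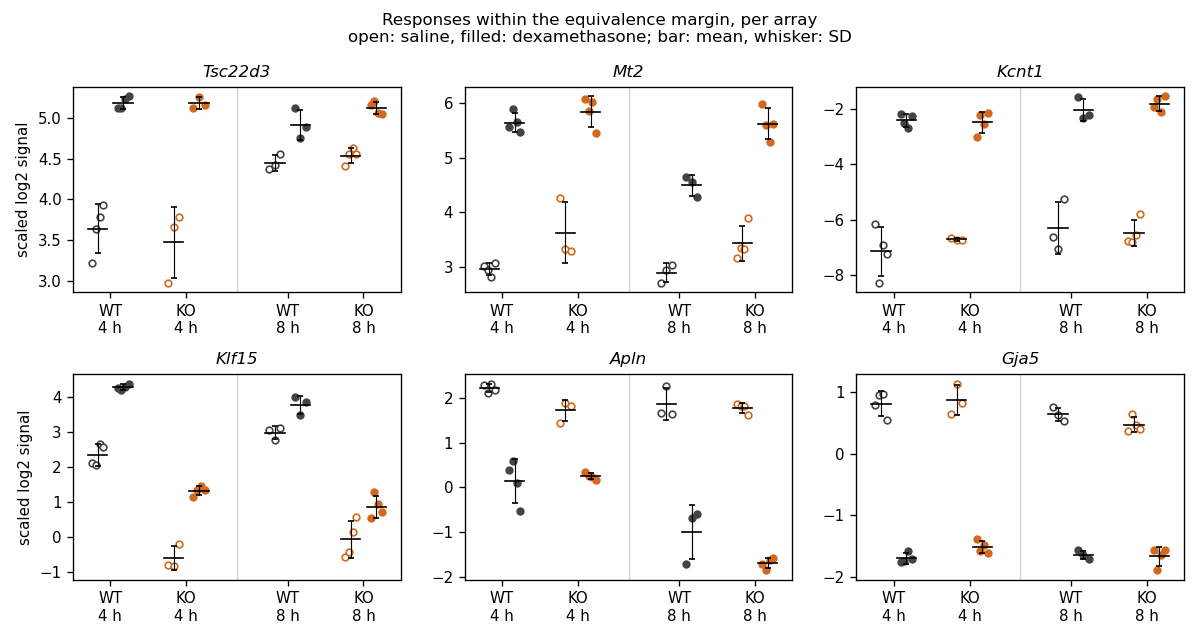
Scaled log2 signal of 6 genes whose responses, averaged over 4 and 8 h, were alike in both genotypes, on every array, by genotype (WT, wild type; KO, Klf15-/-) and time, with open points for saline, filled points for dexamethasone, bars for group means and whiskers for the SD of 3 or 4 arrays. For Mt2 and Apln the genotype difference of the response had opposite signs at 4 and at 8 h. By its brightest probe Klf15 itself moved in parallel at a lower level in the knockout, and Apln and Gja5 fell in both genotypes.

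Known direct targets of the receptor were followed as a list of 32 glucocorticoid-induced genes. In this list 14 were called higher in the knockout's response and 0 lower (43.8%, against 29.6% of all genes), the median difference was 0.35 against 0.14, and 27 rose in wild type and 29 in the knockout (of all genes, 17.1% and 32.4% rose). The 3 with the lowest p were the ubiquitin-editing inhibitor of NF-kB Tnfaip3 (0.53 (SE 0.08, limma adjusted p = 0.000195)), Glul and the kinase Sgk1 (0.59 (SE 0.12, limma adjusted p = 0.00164)). Genotype differences under each treatment, saline first, were -0.40 and 0.14 for Tnfaip3, -0.36 and 0.23 for Sgk1 and -0.54 and 0.71 for Fkbp5. Tnfaip3 fell in wild type (-0.27) and rose in the knockout (0.27), while Sgk1 rose by 0.92 and 1.51, and its call ended after quantile, cyclic loess and normexp processing and in the deposited table. The count depended on the scaling: 4 of 32 (12.5%) after cyclic loess normalization and 6 (18.8%) after quantile normalization, all higher, with medians of 0.14 and 0.21. Of all genes, 18.7% and 19.2% were called in these, with medians of 0.05 and 0.08. The list's share of calls was thus above that of all genes in the main fit but not after these scalings. Fkbp5, a cochaperone that restrains the receptor, had a difference of 1.25 (SE 0.47, limma adjusted p = 0.0473) by its brightest probe, but the 2 others gave -0.07 and 0.04, so its probes disagree. Per1, a clock gene and direct target, had a difference of 0.09 (SE 0.18, limma adjusted p = 0.765). Nr3c1, the receptor gene itself, had 0.24 (SE 0.09, limma adjusted p = 0.0558) by its brightest probe and -0.36, -0.45 and -1.11 by the other 3, so no direction is given for it.

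The remaining lists gave few members with agreeing probes. Of 18 clock genes 1 was called (5.56%, against 29.6% of all genes; median -0.06 against 0.14), Rora, with responses of 0.28 and -0.06 and a difference of -0.34 (SE 0.08, limma adjusted p = 0.00373), which its second probe shared (-0.30). The call for Rora ended after median scaling. Of 16 Krüppel-like factors 1 was called (6.25%, median 0.06), Klf6, at 0.47, a call that ended after normexp correction, in the deposited table and with the dimmest probe. Of 19 FoxO targets and insulin brakes 5 were called higher and 2 lower (36.8%, median 0.18), and for the 3 with the lowest p, Pik3r1 (-0.60), Sesn1 (0.79) and Insr (-0.30), other probes disagreed in sign. Of 15 endothelial markers 3 were called higher and 6 lower (60%, against 29.6% of all genes), with a median of -0.17 against 0.14, which was -0.40 after cyclic loess normalization and -0.39 in the deposited table. Among these Tek, the angiopoietin receptor, fell by 0.72 in wild type and by 1.24 in the knockout (difference -0.52 (SE 0.11, limma adjusted p = 0.00175)), Pecam1 had a difference of -0.35 and Robo4 of 0.45, each by 1 probe. With saline first and dexamethasone second, the genotypes differed by 0.14 and -0.21 for Rora, -0.47 and -0.002 for Klf6, 0.34 and -0.27 for Pik3r1, -0.30 and 0.49 for Sesn1, -0.11 and -0.40 for Insr, 0.35 and -0.17 for Tek, 0.40 and 0.05 for Pecam1 and -0.36 and 0.09 for Robo4. The call for Pecam1 ended after median scaling. The call for Robo4 ended after quantile, cyclic loess and normexp processing and in the deposited table. After median scaling 2 were called higher and 2 lower, and after quantile normalization 0 higher and 7 lower. Of 23 interferon-stimulated genes 1 was called (4.35%), Ifih1, at 0.26, while 22 fell in each genotype (of all genes, 26.3% fell in wild type and 22.8% in the knockout), and none of the 23 was in the classes with agreeing probes.

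Within slides, whose arrays also took part in choosing the genes, the medians are a description. On slides 3 and 7 they compare knockout arrays of 8 h with wild-type arrays of 4 h, and on slides 1 and 2 times are mixed as well. For Klf15-dependent raised genes the median difference of -0.36 became -0.18, -0.25, -0.44 and -0.24 on slides 1, 2, 3 and 7, and for lowered genes 0.42 became 0.25, 0.15, 0.35 and 0.14. For Klf15-opposed raised genes 0.41 became 0.25, 0.34, 0.40 and 0.19, and for lowered genes -0.40 became -0.37, -0.33, -0.46 and -0.23. The median over all genes on these slides was 0.04, 0.02, 0.09 and 0.07. With slide as a fixed block in the fit, 61 of the 100 Klf15-dependent and 164 of the 225 Klf15-opposed genes kept a called difference of the same sign. Leaving out single arrays moved the Klf15-dependent count most, to 64 without wild-type saline 4 h replicate 36 or 8 h replicate 38 and to 66 without wild-type dexamethasone 4 h replicate 52. The difference under dexamethasone was called for 626, 645 and 649 genes without wild-type dexamethasone 4 h replicate 52, 8 h replicate 55 or knockout dexamethasone 4 h replicate 57, and for 1484 without wild-type dexamethasone 4 h replicate 50.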

How the data were processed

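Single-colour Agilent arrays, 29 in all, measured RNA from mouse lung. Spot intensity was read from the deposited scanner files. Their headers name Feature Extraction 10.7.3.1 and the submitters' processing notes version 10.6. Per the file headers the processed signal had its background subtracted and carries no scaling between arrays. A deposited series table of log2 values, made by a method that no source used here gives, followed the spots' median signal (Spearman 0.99998 to 1) and served as an alternative; its column medians were 8.28 to 8.30, and its centring and scale stay unknown.

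Control spots and outlier spots (0.101 to 0.908% per array) were left out, and 0 spots were saturated. Of 43379 spots per array, 75.5 to 88.5% exceeded background clearly, and precision is limited by how many arrays there are. Levels are log2 processed signals from which the 75th percentile of each array was taken away. A probe was kept if 3 or more arrays of any group had it well above background, and each gene was represented by its brightest kept probe. Names came from a RefSeq table of GRCm38.p6 by accession: of 41174 probes, 24844 matched 1 gene and 16330 none. The arrays' design build is mm9, so only promoter windows of the RefSeq table are given with coordinates.

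In R 4.3.3, limma 3.58.1 (lmFit and eBayes) fitted 8 group means over the 29 arrays, with Benjamini-Hochberg adjustment over all 15351 genes, and was tested on simulated data. Klf15-dependent means a called genotype difference with the larger response, also called, in wild type, and Klf15-opposed the same with the larger response in the knockout. Independent means that both responses were called, of one sign and at least 1, and that the difference was not called and its 95% interval lay within 0.5 times the mean response on either side of 0. For independent genes, agreement of probes means responses of one sign on all probes and at least 1 other probe with both responses called and no called difference.

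Genes are named by rule: Klf15, Nr3c1, Aass, Prodh, Mt2, Fkbp5, Per1 and Tsc22d3 always; among agreeing genes with ordinary symbols, the 8 raised and 8 lowered with the largest difference in the Klf15-dependent and Klf15-opposed classes and the 6 raised and 6 lowered with the largest response in the independent class; and from each of the gene lists up to 3 called members with the lowest p, narrowed after the values were seen to the lists the text describes and to called members. Members, lists and rules were chosen with earlier results of these data known. Alternatives covered the scaling, the background correction (normexp on the median signal, offset 50), the deposited table, probe filters, the choice of probe, slide as a block (consensus correlation 0.41), variance models, a stricter threshold and leaving out each array.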

Additional observations from a re-analysis of the deposited data

Results flagged for a closer look

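In 399 groups of 4 arrays of the named genes, 15 held an array whose gap to its nearest neighbour was more than 0.829 of the group's range, and chance gives about 1 in 20. Among the knockout dexamethasone arrays at 8 h it was far for Rbl2 (0.836 of the range, highest array at 0.34). Among the knockout saline arrays at 8 h it was far for Fam177a (0.857 of the range, lowest array at 1.39), Eva1c (0.881 of the range, highest array at 2.07), Tcf23 (0.877 of the range, highest array at -0.27), Cd72 (0.834 of the range, lowest array at -1.30), Slc38a1 (0.936 of the range, lowest array at 0.73), Rora (0.913 of the range, lowest array at 1.01) and Pccb (0.948 of the range, highest array at -0.36). Among the wild-type saline arrays at 4 h it was far for Acat3 (0.868 of the range, lowest array at -2.78), Kcnip3 (0.84 of the range, highest array at -3.76) and Rora (0.951 of the range, lowest array at 0.64). Among the knockout dexamethasone arrays at 4 h it was far for Pirb (0.896 of the range, lowest array at 2.69) and Ep300 (0.85 of the range, lowest array at -2.25). Among the wild-type dexamethasone arrays at 4 h it was far for Pik3c2g (0.841 of the range, lowest array at -3.97) and Cdo1 (0.853 of the range, highest array at 3.14).

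The genotype difference of the response itself was called by limma for 62 of the 80 named genes, and each is given here once with its size. In the Klf15-dependent class with agreeing probes it was -0.85 for Rbl2, -0.72 for Chd4, -0.69 for Fam177a, -0.68 for Sfxn2, -0.67 for Igf2, -0.65 for Acat3, -0.61 for Gigyf2, -0.59 for Peg3, 1.21 for Pirb, 0.99 for Cotl1, 0.77 for Ifi27l2a, 0.71 for Rps19bp1, 0.70 for Rgs2, 0.68 for Ppp1r14c, 0.67 for Fcgr2b and 0.67 for Smarca1. In the Klf15-opposed class with agreeing probes it was 1.08 for Slc38a4, 0.98 for Jaml, 0.74 for Fasn, 0.74 for Lpin1, 0.73 for Rhobtb1, 0.72 for Eva1c, 0.72 for Pik3c2g, 0.69 for Eif5a2, -0.95 for Ep300, -0.88 for Tmem209, -0.80 for Lancl2, -0.77 for Stxbp4, -0.75 for Ap1ar, -0.66 for Zfp60, -0.66 for Pogk and -0.65 for Lfng. Among amino acid enzymes it was -0.45 for Prodh, -0.35 for Bckdhb, -0.71 for Mccc2, -1.26 for Dbt, -0.75 for Fah, -1.19 for Cbs, -0.50 for Acad8, -0.43 for Aldh4a1, -0.25 for Asl, -0.52 for Ass1, -0.19 for Cdo1, -0.39 for Gstz1, -0.43 for Pccb and -0.47 for Ppm1k. Among the other genes named from lists or always it was 1.25 for Fkbp5, 0.53 for Tnfaip3, 0.59 for Glul, 0.59 for Sgk1, 0.54 for Slc7a7, 0.51 for Slc38a1, 0.64 for Cpt2, 0.52 for Scd2, -0.34 for Rora, -0.60 for Pik3r1, 0.79 for Sesn1, -0.30 for Insr, 0.47 for Klf6, 0.45 for Robo4, -0.52 for Tek and -0.35 for Pecam1.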

How the results depend on the processing

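Counts of calls changed with the processing. The genotype difference of the response was called for 4537 genes, and for 2942 after quantile normalization, 2869 after cyclic loess normalization, 2268 after normexp correction, 2251 in the deposited table and 2517 at an adjusted p under 0.01. The share of these calls that was higher was 77.2%, against 64.7%, 56.8%, 63.1% and 57.6% in the first 4 of these, 65.6% with slide as a fixed block, 61.4% with the dimmest probe and 85.1% after median scaling, which moved the median of all genes from 0.14 to 0.20. At 4 h (2605 calls) the counts were 1136 after quantile, 1041 after cyclic loess, 1613 after median scaling, 651 after normexp, 530 in the deposited table, 1606 with the mean of probes, 1578 with the dimmest probe and 610 at 0.01. At 8 h (1001 calls) they were 379, 504, 32, 160, 186, 643, 664 and 96 in the same order, 445 with slide as a fixed block and 3130 with array weights. The difference under saline (5360 calls) was called for 3339 genes after normexp, 3381 in the deposited table and 3462 at 0.01, and that under dexamethasone (987 calls) for 377 after median scaling, 608 after normexp and 381 at 0.01.

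The Klf15-dependent class of 100 genes became 41 after median scaling, 42 after normexp, 38 in the deposited table, 178 with the mean of probes, 23 at 0.01 and 290 when probes needed only the same sign. The Klf15-opposed class of 225 became 143 after quantile, 132 after cyclic loess, 133 after median scaling, 93 after normexp, 96 in the deposited table, 360 with the mean of probes, 346 with array weights, 78 at 0.01 and 708 with the same sign only. Of the main members, 50 and 98 were again members after quantile normalization, 47 and 91 after cyclic loess, and 28 and 96 with slide as a fixed block. The independent class stayed between 46 and 73 genes over the alternatives, but its members changed. Of the 56 main members, 50 were again members after quantile normalization and 49 after cyclic loess. With slide as a fixed block 33 remained, with slide as a random block 39 and with the dimmest probe 23. Without single arrays the calls ranged from 3845 to 4836, those at 4 h from 1307 to 3237, at 8 h from 359 to 1225, under saline from 4549 to 5476 and under dexamethasone from 626 to 1484, and the classes from 64 to 112, 162 to 264 and 45 to 63. The difference between times stayed at 0 calls without any single array. The cause of these shifts was not tested.

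For the 80 named genes, 1085 of 1200 values under alternatives kept their direction and side of the threshold. Most of these genes were chosen in the main fit for a large difference, a large response or a low p, so this share does not stand for all genes. Signs turned for Nr3c1 (-0.42 with the mean of probes, -1.11 with the dimmest probe), and with the dimmest probe for Slc38a1 (-0.13), Pik3r1 (0.20), Sesn1 (-0.17), Insr (0.23), Aldh4a1 (0.12) and Ppm1k (0.063). Aass and Per1, near 0, also turned. Aass was 0.036 after median scaling, 0.0052 after normexp, 0.0044 in the deposited table and -0.053 to 0.023 without single arrays (above 0 at 0.0051, 0.0087, 0.023 and 0.0065). Per1 was -0.081 after quantile, -0.097 after cyclic loess, -0.058 after normexp, -0.087 in the deposited table, -0.12 with array weights and -0.015 to 0.19 without single arrays. No paired analysis was possible because the groups share no replicate numbers in the labels. Slide entered the fit as a block instead, fixed and random, and the values within 4 slides are given without a test. Signal close to background limits the dimmest genes, of which 891 were not measured in every group and enter no class.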
